A study of Mus musculus with 6 samples.

Results

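Interferon-stimulated genes and cytoplasmic RNA sensors were followed through the induced differentiation of mouse erythroleukemia cells as a set of 44 named genes, of 23896 genes named in the count tables. The members were listed by name with no threshold on a measured value, at a time when earlier results of these data were known. Each gene was represented by its RefSeq transcript with the highest mean count, and a gene with 3 or fewer counts in every library was taken as not detected. MEL cells are a Friend virus-transformed line of erythroid precursors that resemble proerythroblasts and make hemoglobin when dimethyl sulfoxide is added. All cells were grown in MEM with 10% FBS, and messenger RNA was sequenced at 0, 2 and 4 days of 2% DMSO from 2 biological replicates per day, giving 6 libraries of 1 cell line. The labels name no added interferon, virus or RNA, and no culture kept without DMSO to day 2 or day 4 was analysed here, so DMSO and time in culture cannot be told apart.

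Interferons are secreted proteins that bind surface receptors, and the receptor-bound kinases JAK1 and TYK2 then phosphorylate STAT factors, among them STAT2. With IRF9 these factors form a complex that binds the interferon-stimulated response element (ISRE) in the promoters of many antiviral genes. Double-stranded RNA in the cytoplasm is detected by RIG-I (encoded by Ddx58) and MDA5 (Ifih1), which signal through MAVS to IRF3 and IRF7, and by PKR (Eif2ak2) and the 2′-5′ oligoadenylate synthetases. Many of the sensors are themselves interferon-stimulated genes, and prolonged interferon signalling is known to restrain red cell production.

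The libraries held 35294930 to 53899476 counts on transcripts. All 12 erythroid markers listed were detected, and their summed level was 1328 to 1406, 4899 to 5786 and 18515 to 20755 CPM (the usual per-million scaling of counts, by TMM-adjusted library totals) on the 3 days in order. Much of the day 4 sum came from Hba-a1 and Hbb-bs, with means of 10628 and 5036 CPM. Klf1 went the other way, from 192 and 309 CPM at day 0 to 173 and 171 at day 4. Every other erythroid marker listed had a higher mean at day 4 than at day 0. Cells that respond strongly to interferon could in principle be present, so markers of other types were read beside the members. Of 12 macrophage and monocyte markers 8 were detected, with a sum of 45.4 to 48.6, 60.3 to 66.0 and 63.4 to 78.9 CPM in the same order. Within that sum Ccr2 had a mean of 21.7, 55.8 and 66.9 CPM on the 3 days. Lyz2 had 0.352, 1.47 and 0.346 CPM, and Adgre1 0.0324, 0.141 and 0.213. The other detected markers were lower at day 2 and day 4 than at day 0. Fcgr1 had 18.1, 4.29 and 1.49 CPM, Cd68 4.89, 0.915 and 1.44, and Csf1r 1.18, 0.360 and 0.639. Cd14 had 0.520, 0.141 and 0.0637 CPM, and Mrc1 0.127, 0.0683 and 0.0609. Itgam, Marco, Ly6c2 and Clec7a were not detected. Of 8 dendritic cell markers 4 were detected, with a sum of 1.94 to 1.97, 3.66 to 3.89 and 6.34 to 6.65 CPM on the 3 days. Of these only Zbtb46 went up, with a mean of 1.22, 3.72 and 6.44 CPM. From day 0 to day 4 the mean of Itgax went from 0.487 CPM to 0, Ccr7 from 0.0994 to 0 and Ly6d from 0.124 to 0.0470. Siglech and Cd209a were at 0 in every library. The sums of 9 lymphoid markers were 0.270 to 0.322, 1.22 to 1.38 and 0.554 to 0.619 CPM on the 3 days in order. Of the 2 that were detected, Cd3g had a mean of 0.0850, 1.22 and 0.509 CPM, and Cd79a 0.154, 0.0647 and 0.0498. The sums of 7 fibroblast markers went from 7.94 to 8.72 CPM at day 0 to 2.11 to 2.65 CPM at day 4. The part of these shifts in the results below was not tested.

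Of the 44 members, 39 were detected and all 39 entered the test. By day 2, 26 of the 39 were higher than at day 0 and 3 were lower (edgeR quasi-likelihood test, adjusted p below 0.05 over 18351 transcripts). Across all 12381 tested genes, 31.0% were called higher and 31.5% lower in that comparison. The median log2 fold change was 0.88 over the tested members and 0.01 over all tested genes. By day 4, 27 members were higher than at day 0 and 4 were lower, where 35.5% and 36.4% of all genes were called, and the median was 1.08 against -0.02. In bulk RNA, a lower value can come from fewer cells of a type or from less RNA per cell, and these cannot be told apart.

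The second step was smaller. Between day 2 and day 4, 4 members rose and 3 fell, beside 14.0% of all genes called higher and 16.2% called lower, and the median over members was 0.15. A few timing classes held nearly all members: 22 rose by day 2 with no call afterwards (20.5% of all genes did), 4 rose in both steps (8.33% of all genes did), 2 fell in both steps (9.05% of all genes did) and 9 had no call in either step (28.4% of all genes). Gbp3 fell by day 2 with no call afterwards, and Bst2 had no call by day 2 and then fell. A direct test of whether the steps differed, with their direction included, was passed by 21 members, as it was by 30.0% of all genes. A rise and a fall of equal size would also count as different. That count was lower when either day 2 library was left out. The share of all genes that passed was not computed for those fits, so a loss over all genes cannot be told apart from one among the members. Both steps share the day 2 libraries, and both changes by day 2 and by day 4 share the day 0 libraries.

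**Figure D1:**
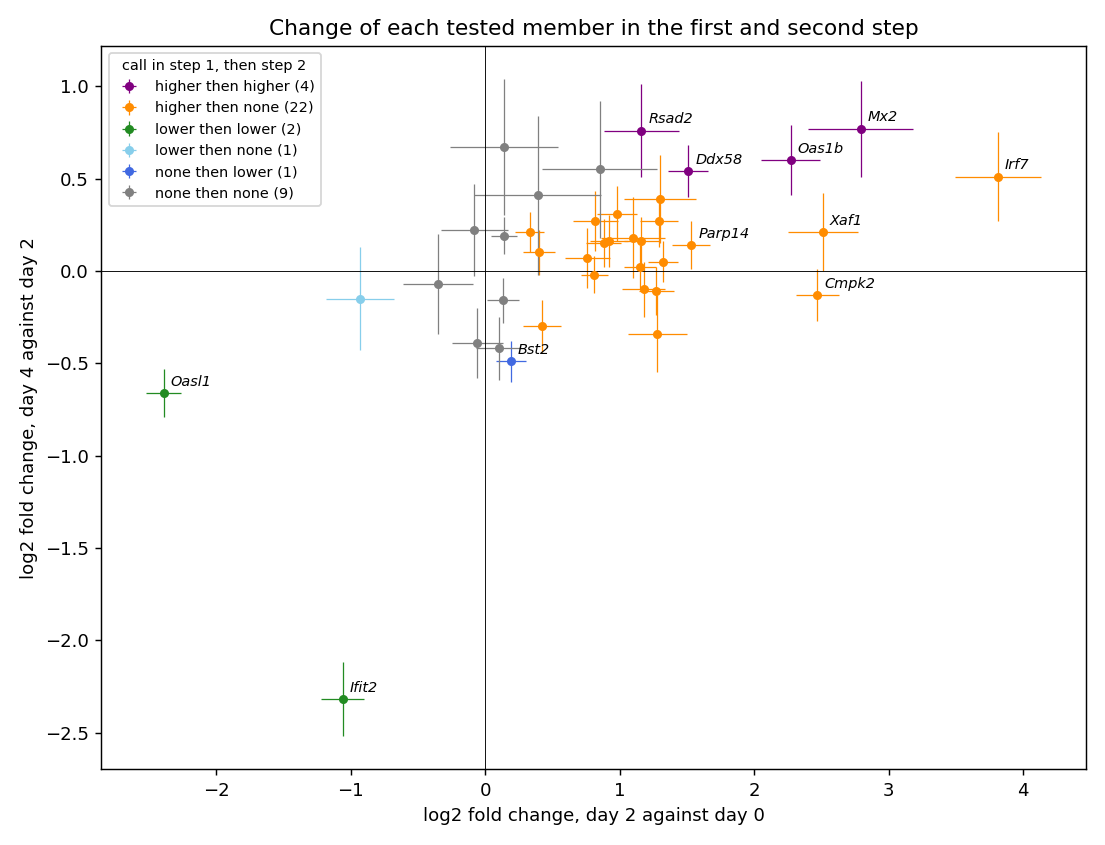
The horizontal axis is the log2 fold change from day 0 to day 2 and the vertical axis that from day 2 to day 4 for the 39 tested members, with bars of 1 SE from the edgeR fit and colours for the calls in the 2 steps. Most points lie to the right of 0 and near 0 in height, Irf7 lies farthest right at 3.81, and Ifit2 lies lowest at -2.32.

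The 4 member transcription factors, Irf7, Stat2, Irf9 and Irf1, all rose. Irf7, the factor that amplifies type I interferon production, had 0.760 and 0.584 CPM at day 0, 8.17 and 10.6 at day 2 and 9.53 and 17.2 at day 4. Both libraries of day 2 and both of day 4 lay above both of day 0, and the ranges of day 2 and day 4 overlapped. The log2 fold change by day 2 was 3.81 ± 0.32 (SE; adjusted p = 3.39e-06), and by day 4 it was 4.33 ± 0.32, a 20.0-fold rise (adjusted p = 6e-07), the largest among the members. From day 2 to day 4 it changed by 0.51 (adjusted p = 0.133). That step was called with no filter (0.51, adjusted p = 0.00771) and without day 4 replicate 1 (0.87).

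Stat2, a subunit of the interferon-activated complex, had 16.1 and 15.6 CPM at day 0, 38.2 and 40.6 at day 2 and 41.0 and 40.3 at day 4. Irf9, the DNA-binding subunit of that complex, had 9.19 and 9.33 CPM at day 0, 20.1 and 21.1 at day 2 and 21.2 and 20.6 at day 4. Both factors were at least 2 times higher in every library of day 2 and day 4 than in either day 0 library and held nearly level after day 2, with log2 fold changes by day 4 of 1.36 ± 0.11 (adjusted p = 1.25e-06) for Stat2 and 1.17 ± 0.12 (adjusted p = 6.07e-06) for Irf9. Irf1, a factor strongly induced by interferon gamma, had 6.52 and 7.74 CPM at day 0, 12.2 and 13.0 at day 2 and 12.9 and 17.3 at day 4. Its day 0 libraries lay below all others, and it rose by 1.09 ± 0.17 on the log2 scale by day 4 (adjusted p = 0.000138).

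The RefSeq promoter table (GRCm38.p6), with windows of 250 bases before to 50 after each start site, held 33 of the 44 members. An ISRE core, spelled GAAANNGAAA and searched on both strands, stood in a window of 15 of these 33 genes, beside 3.99% of all 27025 genes in the table. A gamma-activated site core, spelled TTCNNNGAA, stood in 7 of the 33, beside 9.55% of all genes. An ISRE core was found for 6 of 19 members that were higher at day 4, 2 of 4 that were lower, 6 of 7 that were tested without a call, and 1 of 3 that were not detected. Irf7, Cmpk2 and Oasl1 had neither core in their windows, which says only that these letters are absent there. The stretches below were picked to show the same core before genes that rose (Stat2, Oas3, Rsad2), a gene that fell (Bst2) and genes without a call (Isg15, Ifit1). Each is 60 bases long and lies within the 250 bases before the start site, with its first base at -247, -100, -145, -149, -91 and -110 from that site in the order shown, 5′ to 3′ in the direction of the gene, with whole ISRE cores of either strand in capitals. Where cores overlap, as before Isg15 and Bst2, the capitals run on.
Stat2, chr10:128270251-128270310, plus strand: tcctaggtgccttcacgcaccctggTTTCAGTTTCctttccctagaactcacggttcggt
Oas3, chr5:120777700-120777759, minus strand: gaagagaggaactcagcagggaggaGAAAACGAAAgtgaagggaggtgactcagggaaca
Rsad2, chr12:26456538-26456597, minus strand: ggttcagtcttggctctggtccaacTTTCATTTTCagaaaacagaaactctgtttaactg
Bst2, chr8:71537562-71537621, minus strand: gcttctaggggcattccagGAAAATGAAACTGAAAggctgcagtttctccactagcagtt
Isg15, chr4:156200850-156200909, minus strand: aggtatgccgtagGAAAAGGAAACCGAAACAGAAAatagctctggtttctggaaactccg
Ifit1, chr19:34640779-34640838, plus strand: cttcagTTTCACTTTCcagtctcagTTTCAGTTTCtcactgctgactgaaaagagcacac

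Isg15 had 3 overlapping cores and Ifit1 had 2 in the stretches shown, and neither gene had a call in any comparison. Stat2, Oas3 and Rsad2 each had 1 core and rose, and Bst2 had 2 overlapping cores and fell. Of the members not shown, Ifih1 and Gbp2 had 1 core in the window and no call, and Ddx58 and Eif2ak2 had 1 and rose. Whether the number of cores goes with the change was not tested.

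Among the RNA sensors, RIG-I rose and MDA5 had no call. Ddx58 (chr4:40203777-40239825, GRCm38), which encodes RIG-I, a sensor of RNA ends, had 4.83 and 5.28 CPM at day 0, 13.8 and 15.1 at day 2 and 19.2 and 22.9 at day 4. The libraries of the 3 days did not overlap, and the log2 fold change was 1.51 ± 0.15 by day 2 (adjusted p = 7.96e-06) and 2.06 ± 0.15, or 4.16-fold, by day 4 (adjusted p = 4.55e-07). Ifih1, which encodes MDA5, a sensor of long double-stranded RNA, had 26.7 and 25.2 CPM at day 0, 29.1 and 27.6 at day 2 and 23.3 and 27.4 at day 4. The day 4 libraries enclosed those of day 0, with a log2 change by day 4 of -0.03 ± 0.12 (adjusted p = 0.831) whose sign turned under other settings, to 0.08 with total counts as the scaling. Dhx58, encoding LGP2, which binds RNA without signalling itself, had 5.15 and 5.22 CPM at day 0, 7.81 and 9.73 at day 2 and 8.34 and 10.1 at day 4. It rose by 0.83 ± 0.17 (adjusted p = 0.000941), with every later library above both of day 0.

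Eif2ak2 encodes PKR, a kinase that stops translation when it binds double-stranded RNA, and had 35.0 and 36.9 CPM at day 0, 65.3 and 60.6 at day 2 and 63.3 and 61.2 at day 4. It rose by 0.81 ± 0.10 on the log2 scale by day 2 (adjusted p = 6.03e-05) and lay in the same range at day 4. Adar, encoding the adenosine deaminase that edits double-stranded RNA, had 102 and 92.0 CPM at day 0, 116 and 128 at day 2 and 136 and 148 at day 4. It rose by 0.55 ± 0.11 by day 4 (adjusted p = 0.000989). Its smaller change by day 2, 0.33, was called (adjusted p = 0.0212) but not without day 0 replicate 2 (0.25, adjusted p = 0.0592), day 2 replicate 1 (0.41, adjusted p = 0.051) or day 2 replicate 2 (0.26, adjusted p = 0.179). The 3 Adar transcripts in the tables had nearly equal counts, so its isoforms could not be told apart, and 16.8% of its exon bases overlap Chrnb2 on the other strand. Trim25, a ubiquitin ligase that acts on RIG-I, had 77.9 and 76.5 CPM at day 0, 82.4 and 87.4 at day 2 and 93.5 and 100.4 at day 4. It was higher by day 4 by 0.33 ± 0.10 (adjusted p = 0.0116), and without day 4 replicate 2 by 0.27 (adjusted p = 0.109). Zbp1, a sensor of Z-form nucleic acid, was at 0 in all 6 libraries.

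The OAS family split. These enzymes make 2′-5′ oligoadenylates that activate RNase L, although OASL1 lacks this activity. Oas1b (chr5:120812635-120824163), of which most laboratory strains carry a truncated form, had 1.18 and 1.17 CPM at day 0, 5.37 and 5.96 at day 2 and 7.04 and 10.1 at day 4. No library of a later day overlapped an earlier day, and the log2 fold change by day 4 was 2.87 ± 0.22, or 7.31-fold (adjusted p = 7.58e-07). Oas3, the large synthetase, had 8.73 and 9.07 CPM at day 0, 16.1 and 19.1 at day 2 and 19.2 and 24.4 at day 4. It rose by 0.98 ± 0.15 by day 2 (adjusted p = 0.000212) and stood 1.29 ± 0.15 above day 0 at day 4 (adjusted p = 1.67e-05).

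Oasl1, known to restrain translation of Irf7 mRNA, moved the other way. It had 72.4 and 60.2 CPM at day 0, 12.5 and 12.9 at day 2 and 8.06 and 7.96 at day 4. The day 0 libraries lay more than 4 times above every later one, and the log2 fold change was -2.39 ± 0.13 by day 2 (adjusted p = 2.3e-07), -0.66 ± 0.13 in the second step (adjusted p = 0.00425) and -3.05 ± 0.14 by day 4 (adjusted p = 2.27e-08). Its neighbour Oasl2, 10.9 kb away on chromosome 5, had 0.392 and 0.363 CPM at day 0, 0.671 and 0.692 at day 2 and 0.582 and 1.37 at day 4. Oasl2 was higher by day 4 by 1.40 ± 0.41 (adjusted p = 0.00935), a call lost without day 4 replicate 2 (0.62, adjusted p = 0.23).

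Oas2, 3.2 kb from Oas3, had 11.7 and 8.62 CPM at day 0, 9.75 and 11.9 at day 2 and 8.37 and 7.87 at day 4, and Oas1a had 4.76 and 4.13 CPM at day 0, 4.02 and 4.48 at day 2 and 2.83 and 3.65 at day 4. Oas1g had 1.40 and 1.13 CPM at day 0, 0.910 and 1.06 at day 2 and 0.859 and 1.02 at day 4. None of the 3 was called in a comparison, and their log2 changes by day 4 were -0.32, -0.45 and -0.41. Oas1a was called lower without day 0 replicate 2 (-0.56, adjusted p = 0.0303), without day 4 replicate 2 (-0.65, adjusted p = 0.0289) and under 2 other settings, and Oas2 without day 0 replicate 2 (-0.54, adjusted p = 0.00769). Oas1a and Oas1g share 70.0% and 66.0% of their 29-base words with each other, so the division of reads between these copies is uncertain, whereas Oas1b shares 8.5% of its words with all other genes together. The study itself lists Oas3, Ddx58, Oasl2 and Oas1b among its double-stranded RNA-binding proteins from these same libraries, so their changes here are not independent evidence.

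**Figure D2:**
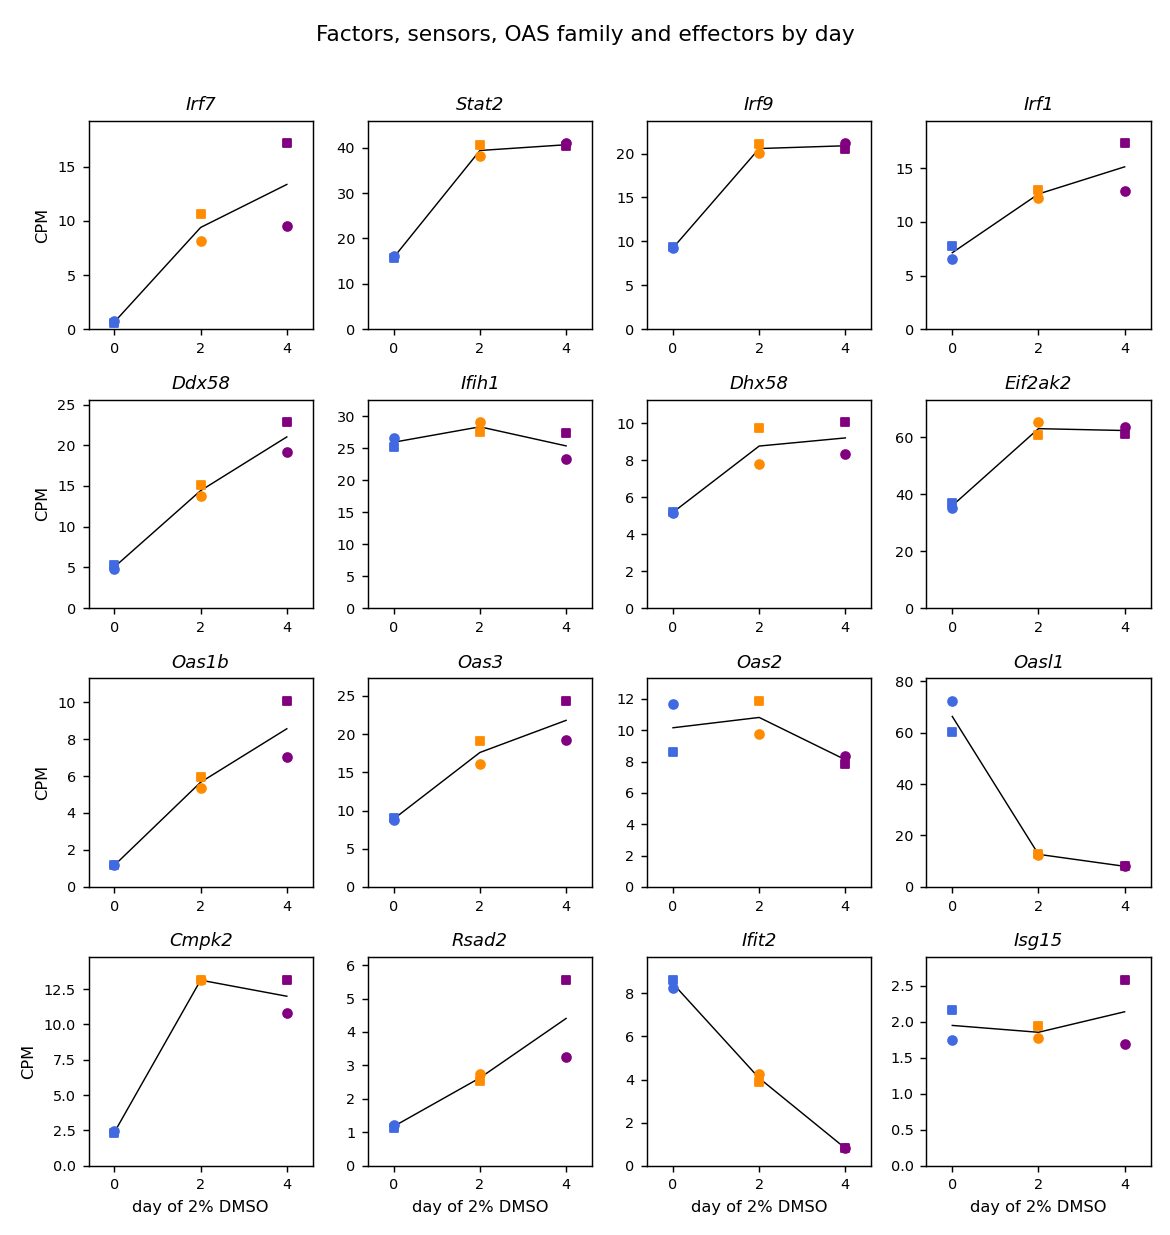
Each panel plots the CPM of 1 gene against the day of 2% DMSO, with a circle for replicate 1, a square for replicate 2 and a line through the means of the 2 libraries per day. The 4 factors in the top row are lowest at day 0, Ifih1 and Oas2 were not called in any comparison, and Oasl1 and Ifit2 fall from a mean of 66.3 to 8.01 CPM and from 8.45 to 0.811 CPM.

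The ISG15 system and the ADP-ribose enzymes were next. ISG15 is a ubiquitin-like protein attached to other proteins during the interferon response, and Isg15 itself had 1.74 and 2.16 CPM at day 0, 1.77 and 1.93 at day 2 and 1.69 and 2.59 at day 4. The days overlapped, and the log2 change by day 4 was 0.14 ± 0.25 (adjusted p = 0.623), with the opposite sign without day 4 replicate 2 (-0.21). Usp18, the protease that removes ISG15 and dampens receptor signalling, had 1.40 and 1.27 CPM at day 0, 2.63 and 3.07 at day 2 and 2.66 and 3.78 at day 4. It rose by 1.28 ± 0.24 by day 4 (adjusted p = 0.000486), with all later libraries above day 0. Herc6, the ligase that attaches ISG15 in the mouse, had 14.3 and 17.7 CPM at day 0, 22.2 and 20.7 at day 2 and 16.4 and 18.4 at day 4. It was higher at day 2 by 0.42 ± 0.14 (adjusted p = 0.0199) and no longer at day 4, at 0.12 ± 0.14 (adjusted p = 0.44). The day 2 call was lost without day 0 replicate 1 (0.28, adjusted p = 0.0743), day 2 replicate 1 (0.38, adjusted p = 0.125) or day 2 replicate 2 (0.47, adjusted p = 0.063), and 25.1% of the 29-base words of Herc6 also occur in Gm45193.

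Parp14, an ADP-ribosyltransferase, had 13.1 and 14.2 CPM at day 0, 35.9 and 43.0 at day 2 and 39.6 and 47.2 at day 4. It rose by 1.67 ± 0.14 by day 4 (adjusted p = 1.38e-06). Parp12, a related enzyme with RNA-binding zinc fingers, had 12.8 and 10.7 CPM at day 0, 26.6 and 30.8 at day 2 and 32.0 and 37.2 at day 4, and rose by 1.56 ± 0.14 (adjusted p = 2.63e-06). For both genes each later library was at least 2 times above each day 0 library, and the first step accounted for 1.53 and 1.29 of the change on the log2 scale. Parp9, which works in a complex with the ligase DTX3L, had 4.07 and 5.14 CPM at day 0, 10.4 and 10.6 at day 2 and 10.3 and 9.37 at day 4, and rose by 1.09 ± 0.16 (adjusted p = 9.02e-05). Dtx3l, whose gene overlaps Parp9 head to head on chromosome 16, had 15.1 and 15.9 CPM at day 0, 20.7 and 20.2 at day 2 and 21.6 and 22.3 at day 4. Its rise by day 4 was smaller, 0.51 ± 0.12 (adjusted p = 0.00225), and its call by day 2 (0.40, adjusted p = 0.0106) was lost without day 2 replicate 1 (0.39, adjusted p = 0.0716) or day 2 replicate 2 (0.42, adjusted p = 0.0556). Parp9 and Dtx3l share 9.4% and 8.0% of their exon bases on opposite strands, and whether the counting used strand was not given in the sources used here.

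Of the antiviral effectors, Rsad2 and Cmpk2 lie 12.7 kb apart on chromosome 12. Rsad2 encodes viperin, which makes a chain-terminating nucleotide, and Cmpk2 encodes a nucleotide kinase that supplies its substrate. Cmpk2 (chr12:26469117-26479837) had 2.45 and 2.30 CPM at day 0, 13.1 and 13.1 at day 2 and 10.8 and 13.2 at day 4. Its level at day 2 and day 4 was more than 4 times that at day 0, with a log2 fold change of 2.47 ± 0.16 by day 2 (adjusted p = 6.25e-07) and 2.34 ± 0.16 by day 4 (adjusted p = 3.8e-07). Rsad2 had 1.23 and 1.13 CPM at day 0, 2.73 and 2.52 at day 2 and 3.24 and 5.57 at day 4. It rose by 1.16 ± 0.28 by day 2 (adjusted p = 0.00369) and stood 1.91 ± 0.27 above day 0 at day 4 (adjusted p = 6.77e-05), with the days not overlapping and day 4 replicate 2 above replicate 1.

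Mx1 and Mx2 encode dynamin-like GTPases that block virus entry and replication, and many laboratory strains lack working copies. Mx2 had 0.0981 and 0.121 CPM at day 0, 0.790 and 0.773 at day 2 and 1.19 and 1.46 at day 4, and its day 0 libraries held 4 and 6 counts. The 3 days did not overlap, and the log2 fold change by day 4 was 3.56 ± 0.37. Mx2 is the 1 tested member with fewer than 10 counts in every library of a day, so its fold rests on few reads. It passed the filter only through day 2 and day 4, where it was high. The counts of members called higher by day 2, by day 4 and in both steps include it. Mx1 had 0.637 and 1.07 CPM at day 0, 2.11 and 2.16 at day 2 and 2.47 and 3.09 at day 4, and rose by 1.69 ± 0.27 (adjusted p = 0.000171). Between them 12.9% of the 29-base words of Mx2 occur in Mx1.

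The IFIT genes encode proteins that recognise foreign RNA and restrain its translation, and lie in a cluster on chromosome 19. Ifit2 (chr19:34550550-34576534) had 8.26 and 8.64 CPM at day 0, 4.26 and 3.87 at day 2 and 0.804 and 0.818 at day 4. Every day lay below the one before it, with log2 fold changes of -1.06 ± 0.16 by day 2 (adjusted p = 0.000173) and -2.32 ± 0.20 from day 2 to day 4 (adjusted p = 9.48e-05), giving -3.38 ± 0.19 by day 4 (adjusted p = 1.09e-07). It was the member with the largest fall and the 1 member called with a size of at least 1 in the second step. Ifit1 had 0.515 and 0.423 CPM at day 0, 0.455 and 0.570 at day 2 and 0.526 and 1.08 at day 4, with no call by day 4 (0.81 ± 0.38, adjusted p = 0.0741), but was called with total counts as the scaling (0.92, adjusted p = 0.0422) and without day 4 replicate 1 (1.21, adjusted p = 0.0133). Ifit3, 6.6 kb from Ifit2, had 1 count in each day 0 library and none later, which is under the limit for detection.

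Bst2, encoding tetherin, which holds budding virus at the cell surface, had 31.9 and 35.4 CPM at day 0, 38.3 and 38.3 at day 2 and 27.2 and 27.4 at day 4. It fell from day 2 to day 4, with a log2 fold change of -0.49 ± 0.11 (adjusted p = 0.00808) and stood at -0.30 ± 0.11 against day 0 (adjusted p = 0.0304). The second-step call was lost without either library of day 2 or of day 4 (-0.50 to -0.49, adjusted p from 0.0516 to 0.0861). The day 4 call against day 0 was lost without day 0 replicate 2 (-0.24, adjusted p = 0.0614), without either day 2 library (-0.30 each, adjusted p = 0.0627 and 0.0648) or either day 4 library (-0.30 and -0.31, adjusted p = 0.121 and 0.112), and with total counts as the scaling (-0.19, adjusted p = 0.162). Gbp3, a guanylate-binding protein that attacks the vacuoles of microbes, had 1.54 and 1.85 CPM at day 0, 0.910 and 0.875 at day 2 and 0.693 and 0.906 at day 4. It fell by day 4, with a log2 fold change of -1.08 ± 0.26 (adjusted p = 0.00304), most of it by day 2 (-0.93, adjusted p = 0.0076, but -0.96 and -0.90 with adjusted p = 0.0548 and 0.0715 without day 2 replicate 1 and replicate 2). Gbp2, 47.4 kb away, had 0.147 and 0.201 CPM at day 0, 0.263 and 0.204 at day 2 and 0.360 and 0.265 at day 4, from 6 to 13 counts a library, and no call (0.80 ± 0.45, adjusted p = 0.132).

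The remaining members that were detected all rose by day 2. Xaf1, a protein that opposes inhibitors of apoptosis, had 0.637 and 0.947 CPM at day 0, 4.00 and 5.15 at day 2 and 4.63 and 5.94 at day 4. Its later libraries were at least 4 times above either day 0 library, and its log2 fold change was 2.51 ± 0.26 by day 2 (adjusted p = 1.16e-05), 0.21 in the second step (adjusted p = 0.488) and 2.72 ± 0.26 by day 4 (adjusted p = 3.23e-06). Ifi35, a leucine zipper protein, had 12.1 and 14.4 CPM at day 0, 27.4 and 31.9 at day 2 and 32.9 and 33.5 at day 4. Sp100, a component of nuclear bodies, had 6.37 and 6.91 CPM at day 0, 15.3 and 16.7 at day 2 and 14.4 and 15.2 at day 4. Ifi27, which encodes a small membrane protein, had 23.3 and 19.7 CPM at day 0, 38.3 and 40.8 at day 2 and 48.0 and 39.8 at day 4. Each of these 3 genes was lower in both day 0 libraries than in any later one, with log2 fold changes by day 4 of 1.33, 1.15 and 1.03 (adjusted p = 5.48e-06, 1.59e-05 and 3.81e-05). Ifi35 overlaps Gm11626 on the other strand over 16.8% of its exon bases.

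Samd9l, a growth-restraining antiviral protein, had 15.8 and 16.2 CPM at day 0, 32.1 and 28.4 at day 2 and 29.4 and 38.3 at day 4, and rose by 1.08 ± 0.14 (adjusted p = 4.52e-05). Trim30a, a TRIM family protein, had 1.15 and 0.947 CPM at day 0, 2.56 and 2.50 at day 2 and 1.94 and 2.06 at day 4. It was highest at day 2, at 1.28 ± 0.22 above day 0 (adjusted p = 0.000465), and stood 0.94 ± 0.23 above day 0 at day 4 (adjusted p = 0.00313), with a second step of -0.34 that was not called (adjusted p = 0.234). Besides Zbp1 and Ifit3, 3 members were not detected: Ifi44 had 1 count in day 4 replicate 2 and none elsewhere, and Rtp4 and Epsti1 were at 0 in every library. A count of 0 allows up to 3 counts in a library.

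**Figure D3:**
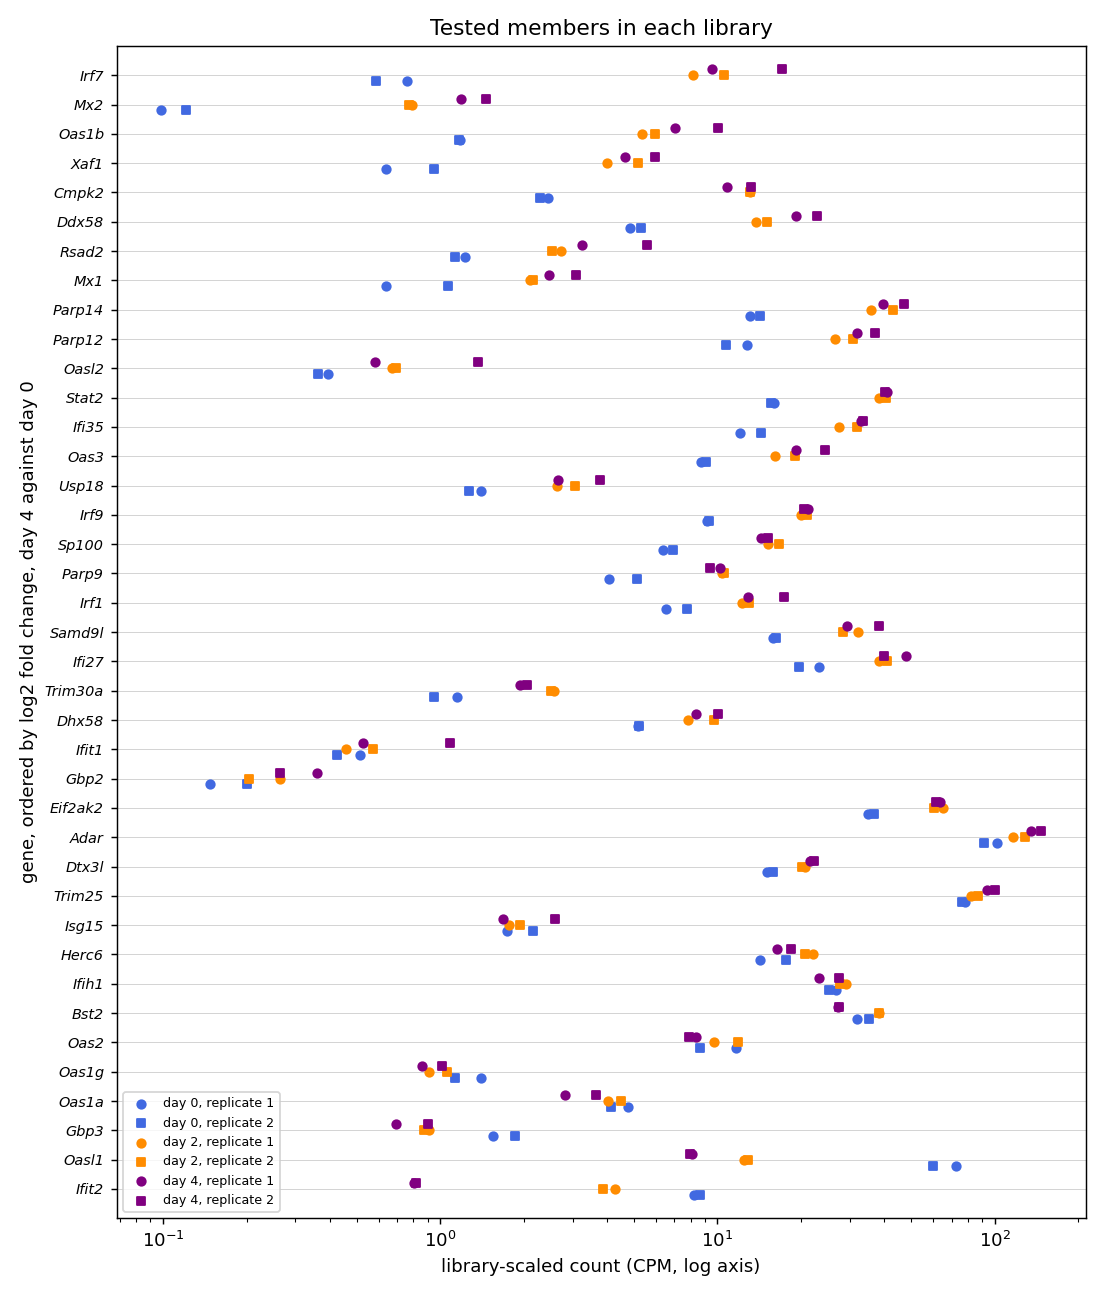
Each row is 1 of the 39 tested members and the horizontal log axis is CPM, with circles for replicate 1, squares for replicate 2 and colours for the day. The day 0 points lie to the left of the others in most of the upper rows and to the right in the bottom rows, where Ifit2 and Oasl1 have the lowest log2 fold changes of -3.38 and -3.05.

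Levels between genes were compared per length, as TPM, a count divided by transcript length and scaled to the same sum in every library, over 1 transcript per gene. The tested members had a median of 12.1 TPM, beside 30.1 TPM over all tested genes. At day 0 the highest members were Bst2 at 139 ± 6.86 TPM (SD, n = 2), Oasl1 at 102 ± 15.8, Ifi27 at 72.1 ± 10.2 and Adar at 53.7 ± 5.23. At day 4 they were Ifi27 at 154 ± 23.3 TPM, Bst2 at 118 ± 1.71, Ifi35 at 83.3 ± 0.626 and Adar at 81.8 ± 3.20, and the last 2 did not differ beyond their spread. Oasl1 stood at 12.9 ± 0.385 TPM at day 4, below Irf7 at 23.7 ± 9.14, which had been at 1.15 ± 0.239 at day 0. Gbp2 and Ifit2 were the lowest at day 4, at 0.425 ± 0.0999 and 0.725 ± 0.00588 TPM.

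The 4 rises called in the second step were small and were lost when single libraries were left out. They were 0.77 ± 0.26 for Mx2 (adjusted p = 0.047), 0.76 ± 0.25 for Rsad2 (adjusted p = 0.0389), 0.60 ± 0.19 for Oas1b (adjusted p = 0.0338) and 0.54 ± 0.14 for Ddx58 (adjusted p = 0.0128). None of the 4 was called without day 2 replicate 1, without day 2 replicate 2 or without day 4 replicate 2. Without day 4 replicate 2 the values were 0.60 for Mx2, 0.30 for Rsad2, 0.31 for Oas1b and 0.41 for Ddx58 (adjusted p = 0.28, 0.451, 0.346 and 0.139). Mx2 was also not called without day 4 replicate 1 (0.90, adjusted p = 0.0681). With total counts as the scaling, only Ddx58 among these 4 was called in that step. Total counts shifted the median of all genes by 0.20 by day 2, -0.08 in the second step and 0.11 by day 4, and split all genes by day 2 into 40.4% higher and 23.3% lower.

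The rest of the pathway was read from a list of 150 other interferon pathway genes, of which 146 were in the tables, 111 were detected and 99 were tested. By day 2, 44 rose and 25 fell, with a median log2 fold change of 0.31. These were 44.4% and 25.3% of the tested list, beside 31.0% and 31.5% of all genes. From day 2 to day 4, 26 rose and 12 fell, and both counts went down without either day 2 library or without day 4 replicate 2. The shares of all genes called were not computed for those fits. The counts over all 6 libraries were 26.3% and 12.1% of the list, beside 14.0% and 16.2% of all genes. By day 4, 50 were higher and 26 lower than at day 0 (50.5% and 26.3%, beside 35.5% and 36.4% of all genes), with a median of 0.39. None of the 19 interferon genes on the list was detected on any day, including Ifnb1 and Ifng.

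**Figure D4:**
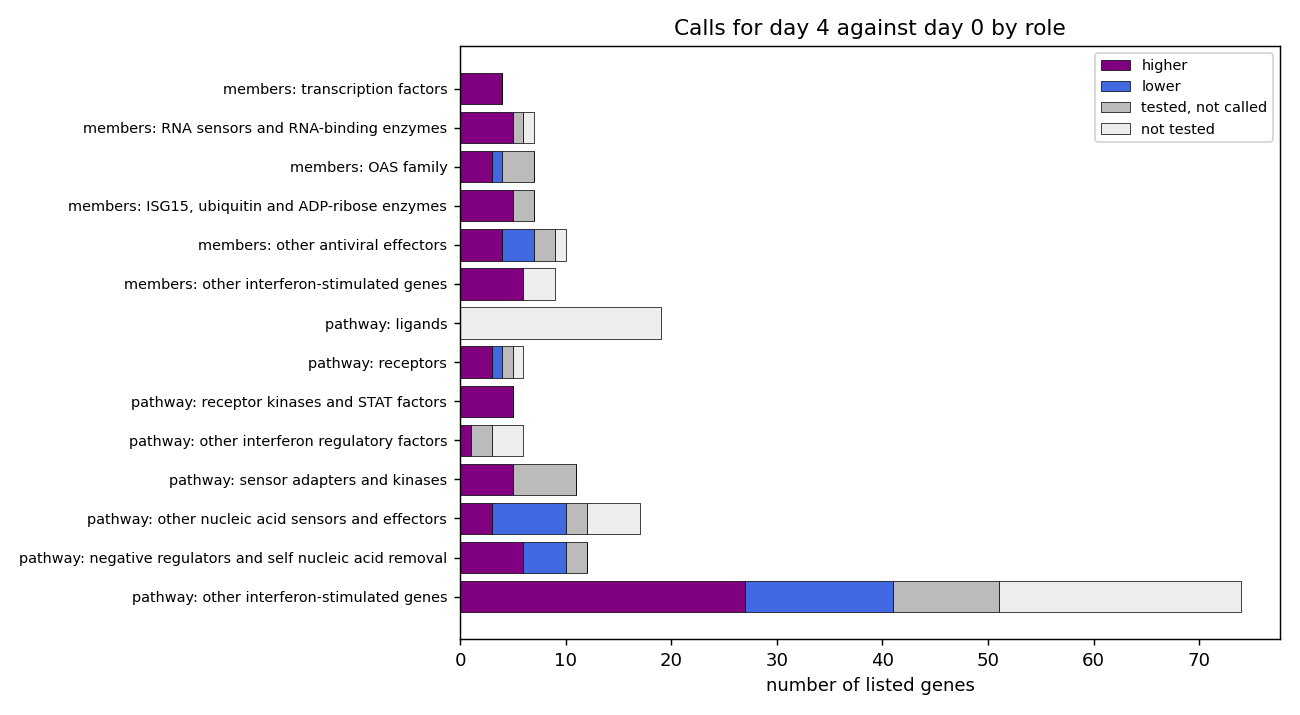
Bars show the number of listed genes of each role, divided into those higher, lower or not called at day 4 against day 0 and those not tested. All 4 member transcription factors are in the higher part, and all 19 ligands are in the part that was not tested.

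Most receptor chains and signalling proteins were present from day 0. Ifnar1, a chain of the type I receptor, had 32.8 and 29.9 CPM at day 0, 40.1 and 44.7 at day 2 and 53.2 and 54.5 at day 4, and rose by 0.78 ± 0.11 by day 4 (adjusted p = 7.92e-05). Ifnar2, its partner chain, was higher by 0.35 ± 0.12 (adjusted p = 0.0244), but by 0.21 without day 4 replicate 1 (adjusted p = 0.233) and by 0.35 without day 2 replicate 1 (adjusted p = 0.0506). Of the interferon gamma receptor, Ifngr2 rose by 0.98 ± 0.14 (adjusted p = 7.23e-05) and Ifngr1 had no call. Il10rb, a chain shared with the interleukin 10 receptor, was lower by day 4, at -0.34 ± 0.12 (adjusted p = 0.027), but not called without day 2 replicate 1 (-0.35, adjusted p = 0.0523), day 2 replicate 2 (-0.34, adjusted p = 0.0535) or day 4 replicate 1 (-0.26, adjusted p = 0.168). Ifnlr1, the specific chain of the interferon lambda receptor, was not detected. The receptor kinases also rose by day 4, Tyk2 by 1.37, Jak1 by 0.94 and Jak2 by 0.88, as did the factor Stat3, by 0.83 (adjusted p from 2.13e-06 to 2.8e-05).

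Below the sensors, 5 of 11 adapters and kinases were higher by day 4 and none was lower, where 35.5% and 36.4% of all genes were called. Mavs, the mitochondrial adapter of RIG-I and MDA5, had 49.7 and 36.3 CPM at day 0, 60.8 and 61.2 at day 2 and 91.3 and 94.9 at day 4. It rose by 1.11 ± 0.14 (adjusted p = 2.64e-05), each day above the one before. Ticam1, Traf6 and Tbk1 rose by 0.84, 0.55 and 0.39 (adjusted p = 0.000627, 0.000579 and 0.00523). Azi2 rose by 0.25 (adjusted p = 0.0426). That call was lost with no filter, RLE factors, DESeq2 or only the 2 days compared (0.22 to 0.25, adjusted p from 0.0603 to 0.0821). It was also lost without any 1 of 5 libraries (0.20 to 0.26, for day 0 replicate 1, either day 2 library or either day 4 library). Irf2, a factor that competes with IRF1, rose by 1.03 ± 0.12 (adjusted p = 1.26e-05), and Irf3, the factor activated through MAVS, had no call at day 4. Irf3 was called lower by day 2 (-0.53, adjusted p = 0.0196), a call lost without day 0 replicate 2 (-0.22, adjusted p = 0.136), day 2 replicate 1 (-0.48, adjusted p = 0.126) or day 2 replicate 2 (-0.57, adjusted p = 0.077) and with total counts as the scaling (-0.33, adjusted p = 0.0993). The adapters Traf3 and Myd88 were also called lower by day 2 (-0.32 and -0.33, adjusted p = 0.0244 and 0.0326) and had no call at day 4. Both day 2 calls were lost with total counts (-0.12 and -0.14, adjusted p = 0.375 and 0.357), without day 0 replicate 1 (-0.21 and -0.23, adjusted p = 0.0779 and 0.0881) and without either day 2 library (-0.27 and -0.37 for Traf3, -0.23 and -0.44 for Myd88, adjusted p from 0.0535 to 0.255), and that of Myd88 also without either day 4 library (-0.33 and -0.34, adjusted p = 0.0559 and 0.0556).

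The largest rises among the tested genes of this list were Gbp6, Gbp10, Ifitm1 and Gbp9, of the guanylate-binding and membrane-guarding protein families. Gbp6 had 0 and 2 counts at day 0, 18 and 22 at day 2 and 60 and 79 at day 4, a ratio of scaled counts of 77.3 between day 4 and day 0 (95% exact interval 21.0 to 644, counting error only). Gbp10 had 0 and 1 counts at day 0 and 25 and 19 at day 4, a ratio of 48.9 (8.33 to 1980.0), and Ifitm1 had 3 and 0 counts and then 24 and 71, a ratio of 35.2 (11.7 to 174). Gbp9 had 5 and 4 counts at day 0, 23 and 34 at day 2 and 42 and 70 at day 4. Its levels were 0.123 and 0.0806 CPM at day 0, 0.551 and 0.692 at day 2 and 1.16 and 1.55 at day 4, a log2 fold change of 3.74 by day 4. These genes passed the filter only through the later days, where they were high, so their folds rest on few day 0 reads.

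The largest falls among them were Tmem173, Phf11d, Phf11a and Phf11b. Tmem173, encoding STING, the adapter of cytoplasmic DNA sensing, had 5.98 and 4.61 CPM at day 0, 0.120 and 0.122 at day 2 and 0.0831 and 0.0884 at day 4. It fell by day 2 to a small part of its day 0 level, with a log2 fold change of -5.89 by day 4. Its counts were 244 and 229 at day 0, 5 and 6 at day 2 and 3 and 4 at day 4. It passed the filter through day 0 alone, where it was high, so the size of its fall rests on few later reads. Phf11d had 17.2 and 16.1 CPM at day 0, 3.57 and 3.56 at day 2 and 1.11 and 0.552 at day 4, and fell with a log2 fold change of -4.36 ± 0.24 (adjusted p = 9.26e-08). Phf11a and Phf11b, its near copies, changed by -3.56 and -3.47 (adjusted p = 1.94e-05 and 1.16e-05), from at most 64 counts a library. Mlkl, the executor of necroptosis, Ptpn6, a phosphatase that dampens receptor signalling, and Rnaseh2b, a subunit of the enzyme that removes RNA paired with DNA, also fell, by day 4 log2 fold changes of -2.27, -1.74 and -2.17 (adjusted p = 1.93e-07, 1.93e-07 and 3.98e-07). Among negative regulators and enzymes that remove self nucleic acid, a list that holds Ptpn6 and Rnaseh2b, 6 of 12 genes were higher and 4 lower by day 4. In that comparison 35.5% of all genes were called higher and 36.4% lower. Socs3, which dampens cytokine receptor signalling, rose by 3.39, and Rnaseh2a, the catalytic subunit of that RNA-removing enzyme, by 0.54 (adjusted p = 2.39e-07 and 0.000617). Socs1, which also dampens that signalling, had 8 and 12 counts at day 0, 31 and 36 at day 2 and 32 and 39 at day 4. Its log2 fold change by day 4 was 1.97. It passed the filter only through the later days, where it was high, so its fold rests on few day 0 reads. Of the 17 other nucleic acid sensors and effectors 12 were tested, and 3 were higher and 7 lower by day 4, beside 35.5% and 36.4% of all genes.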

How the data were processed

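Polyadenylated RNA of MEL cells was sequenced from stranded libraries at 3 days, with 2 biological replicates per day, and groups and replicate numbers were taken from the sample labels. The authors trimmed adapters with cutadapt and used TopHat for alignment to mm10. What they deposited were raw counts of reads on each RefSeq transcript, not normalized and not pooled. The submitters' processing notes name HTSeq, and its version, strand setting, overlap mode and annotation release were not given in the sources used here. Reads on no feature were 50.5 to 58.4% of the reads listed and were left out, and ambiguous and non-unique reads were listed at 0. Of 32654 transcripts listed, 32199 were named from a RefSeq table of GRCm38, 187 from GENCODE and 268 had no name. Coordinates are from those annotations.

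The deposited counts were tested with edgeR 4.0.16 in R 4.3.3 (TMM factors, filterByExpr by day, 1 quasi-likelihood fit to the 6 libraries, each day having its own mean), with Benjamini-Hochberg adjustment over 18351 transcripts and a call at an adjusted p below 0.05. The code was tested on simulated data. CPM were computed per TMM-scaled library. Intervals cover counting error only. Shared sequence was measured as the share of 29-base words found in transcripts of other genes. Promoters and motifs are described without a test.

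The members and gene lists were chosen with earlier results of these data known. Every member may be named, and the other pathway genes named are the 4 largest rises and 4 largest falls by day 4, and receptors, receptor kinases, STAT factors and sensor adapters by role, of which 1 is not reported here. Irf2, Irf3, Mlkl, Ptpn6, Rnaseh2a, Rnaseh2b, Socs1 and Socs3 lie outside that rule, and their values were known when they were picked. Alternatives were no filter, RLE factors, total counts, scaling without globin transcripts, DESeq2 1.42.0, the replicate number as a block, only the 2 days compared, 1 transcript per gene, a size limit of 1 on the log2 scale, and leaving out each library.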

Additional observations from a re-analysis of the deposited data

How the results depend on the processing

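Of the single-gene values, 2059 of 2184 recomputed under an alternative kept their direction and their side of the threshold, 110 lost the call, 9 gained one and 6 turned sign, none of them a called value. The members higher by day 2 were 17 under a size limit of 1 on the log2 scale. Among the alternatives, shares of all genes were computed only with total counts. Counts under the size limit or any other alternative therefore have no share to be set against. The median of the tested members by day 2 was 0.85 with RLE factors, 1.08 with total counts and 0.86 to 0.93 with a library left out. The members higher from day 2 to day 4, and those higher at both steps, were 1 with total counts, 2 with the replicate block, 2 with DESeq2, 0 under that size limit (4 were called at any size) and 0 to 5 with a library left out. The members lower in that step were 5 with only the 2 days compared, 1 under the size limit and 2 to 5 with a library left out, and those lower at both steps were 1 under the size limit. With a library left out, 4 to 32 other pathway genes were higher and 2 to 16 lower in the second step, the median of the members was 0.01 to 0.22 in that step and 0.89 to 1.15 by day 4, and 5 to 23 members had unequal steps.

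The sign by day 4 turned for Ifih1, at 0.08 with total counts and -0.16 to 0.08 with a library left out, for Isg15, at -0.21 to 0.40, and for Herc6, at -0.03 to 0.28. The causes were not tested. The sources used here do not state whether same-numbered libraries were paired. The differences between replicate 1 and replicate 2 correlated at 0.032 to 0.079 between days, so the replicate number carried little shared deviation. With 2 libraries per day, a day left with 1 library is assumed to vary like the others, and genes with few counts, such as Gbp2, Ifit1 and Oasl2, allow only large changes to be seen.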
